A study of Schizosaccharomyces pombe with 50 samples.

Results

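The 10 genes rpb1 to rpb10 encode subunits of RNA polymerase II (RNA pol II) in the fission yeast Schizosaccharomyces pombe. They were taken by name from the table of open reading frame (ORF) windows, and every member was found, so that they made up 10 of 6613 windows. The data were chromatin immunoprecipitation sequencing (ChIP-seq) profiles of growing and quiescent cells, so that the values below describe polymerase and histone marks on the subunit genes, not their transcripts or proteins. RNA pol II phosphorylated at serine 5 (S5) was lower in quiescent cells at 9 of the 10 genes, where 24.7% of all windows were lower. That count fell to 1 when replicate 2 was left out and to 3 when replicate 3 was. RNA pol II phosphorylated at serine 2 (S2) was lower at 2 of the 10 genes, where 10.9% of windows were. This S2 count fell to 0 when replicate 2 was left out. A test of the difference between the S2 and S5 changes called no gene. The trimethylation of histone H3 at lysine 4 (H3K4me3) was lower at 9 genes, where 40.0% of windows were lower and 40.9% higher. The histone variant H2A.Z was lower at 6 and higher at 3, where 38.9% of windows were lower and 38.3% higher. Without replicate 2 or without replicate 3, H2A.Z was lower at 4 and higher at none. The H3K4me3 and H2A.Z changes went with the strand of the gene, in the members and in spliced genes across the genome. In spliced genes the strand mostly set which end the window held, the 5′ end on the plus strand and the 3′ end on the minus strand.

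All libraries came from strain Hu3112, whose genotype is mat1-M smt-0 pht1-myc. The pht1 gene encodes H2A.Z, and its Myc tag, which both groups carried, was the epitope for the H2A.Z ChIP. Vegetative (V) cells were collected in mid-log growth in PMG, a minimal medium, and quiescent (Q) cells after 24 h in the same medium without nitrogen. For each of 8 antibodies (S5, S2, H3K4me3, H3K9ac, H3K9me2, H3K9me3, Myc for H2A.Z, and H3) there were 3 V and 3 Q libraries, 48 in all, described by the study as biological triplicates. The comparison of Q with V cells asks how polymerase and histone marks are redistributed when cells leave the cell cycle on nitrogen starvation.

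RNA pol II transcribes the protein-coding genes of the nucleus. Its largest subunit, Rpb1, ends in a carboxy-terminal domain (CTD) built of repeats of the same short peptide. Serine 5 of the repeat is phosphorylated as the polymerase starts transcription and leaves the promoter, and serine 2 is phosphorylated as it elongates. ChIP with antibodies against these forms therefore reads out early and elongating polymerase. H3K4me3 and H2A.Z are typically found around the 5′ ends of genes. A polymerase I, II or III core is assembled around shared subunits, so that some of these genes serve RNA synthesis well beyond messenger RNA.

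The part of rpb1 that gives the S5 and S2 antibodies their epitopes is shown here because both readouts rest on it. A run of 10 consecutive identical repeats, II:1596288-1596497 on the plus strand in ASM294v3, reads as follows, with the codons of the serines at positions 2 and 5 of each repeat in capitals.
rpb1 CTD repeats: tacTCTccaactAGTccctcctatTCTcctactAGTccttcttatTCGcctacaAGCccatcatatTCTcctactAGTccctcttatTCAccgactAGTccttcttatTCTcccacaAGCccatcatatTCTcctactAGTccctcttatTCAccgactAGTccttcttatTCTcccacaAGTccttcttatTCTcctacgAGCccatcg
The gene holds 24 such identical repeats, of which 20 follow each other without a break. Their 48 serine codons at positions 2 and 5 used AGT 18 times, TCT 14 times, AGC 6 times, TCA and TCC 4 times each, and TCG 2 times. The peptide is thus constant where the DNA is not. These repeats lay 5134 bp past the start codon and outside the window in which rpb1 itself was measured.

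What a window held decides what a value means, and it was therefore examined next. The coordinates of the windows follow ASM294v2, and strand and exons were read from ASM294v3. In 10 of 10 members the ORF window ended exactly 200 bp past the end of the exon with the lowest coordinates, as did 3719 of 5039 protein-coding windows (73.8%) and 2408 of 2458 windows of genes with more than 1 exon (98.0%). Where this held, the window of a spliced gene on the plus strand covered its 5′ end, and that of a spliced gene on the minus strand its 3′ end. The rpb1 window (II:1590920-1591368) spanned 449 bp of a gene of 5605 bp, and the rpb2 window (I:850391-850891) spanned 501 bp of 3750 bp. Both genes open with a short coding exon that ends at an early intron. The coding starts of both genes are given from the start codon, across the intron and into the next exon, with coding bases in capitals and the intron in lower case, at II:1591154-1591229 and I:850676-850789 in ASM294v3.
rpb1 coding start: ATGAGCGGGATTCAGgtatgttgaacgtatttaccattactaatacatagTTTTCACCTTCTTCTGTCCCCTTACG
rpb2 coding start: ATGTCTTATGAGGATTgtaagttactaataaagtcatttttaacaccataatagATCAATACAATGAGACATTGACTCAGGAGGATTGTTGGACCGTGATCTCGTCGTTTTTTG

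Of the other plus-strand members, rpb4 (II:1055329-1055913), rpb5 (I:1054465-1055009), rpb6 (III:782823-783575), rpb7 (I:2901904-2902961) and rpb8 (II:2223441-2224041) also had a window that took in the 5′ end. The rpb7 window, of 1058 bp, reached over all 519 coding bases of its gene. The minus-strand members were rpb3 (III:1782697-1786961), rpb9 (I:4751190-4751934) and rpb10 (I:4950141-4950865). The rpb9 and rpb10 windows covered the 3′ end and reached well into these short genes. They held 176 of the 342 coding bases of rpb9 and 163 of the 216 of rpb10. Their last coding exons, which those windows reach, are shown in capitals after the end of the last coding intron in lower case, read on the minus strand from I:4751684-4751794 and I:4950640-4950725.
rpb9 coding end: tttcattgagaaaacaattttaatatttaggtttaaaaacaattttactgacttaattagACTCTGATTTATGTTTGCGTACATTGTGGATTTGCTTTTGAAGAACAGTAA
rpb10 coding end: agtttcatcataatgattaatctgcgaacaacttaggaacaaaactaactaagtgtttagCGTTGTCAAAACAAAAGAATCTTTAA
The rpb3 window was the exception in size. It spanned 4265 bp, took in the 3′ end and the gene body, and held all 1942 bp of trp3, a gene of tryptophan synthesis on the opposite strand. ChIP reads carry no strand, so the rpb3 values cannot be told apart from those of trp3. In the same way, 1016 bp of the rpb7 window overlapped tcb3, which runs on the opposite strand. The rpb9 and rpb10 windows lay wholly within noncoding RNAs on the opposite strand. A further protein-coding gene, mid2, overlapped the rpb9 window by 264 bp on the same strand. Over those bases the values of rpb9 and mid2 cannot be told apart.

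The libraries held between 856936 and 20673131 recovered reads in ORF windows, and a member held between 27 and 6811 reads in a library. The files give these reads divided by a size factor for each library, and these normalised read counts are the values below. A change shared by every window would be removed by that scaling. The 8 antibodies of Q replicate 1 stood apart, since their profiles over ORF windows correlated with each other at a median Spearman rho of 0.973 (lowest 0.921, over 28 pairs), against medians of 0.264 to 0.302 in the V replicates, 0.763 in Q replicate 2 and 0.470 in Q replicate 3. Some results are therefore also given without replicate 1. The percentiles below all include it. A lower level in each cell and a smaller share of cells with the mark cannot be told apart in such cultures. Q replicates 2 and 3 of S5 and of S2 differed by less than the noise of read sampling (ratio of chi-square to degrees of freedom, 0.876 for S5 and 0.980 for S2), and were counted as 1 sample, so that n = 2 for Q cells in each S5 or S2 mean. The main fits of S5, of S2 and of their difference kept these replicates as separate libraries. Their standard errors and p-values below may therefore be too small, and fits with the pair merged are given as an alternative. As a check of the cell states, S5 at the histone genes hht1 and hhf1 was lower in Q cells for 2 of 2, and of 6 genes known to respond to nitrogen starvation 2 were higher and 1 lower for S5 and 5 were higher for H3K4me3. H3 itself was higher at 5 of these 6.

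S5 was lower at most of the subunit genes. Rpb1 carries the CTD and, with Rpb2, forms the catalytic centre. At rpb1 the S5 values were 342, 353 and 381 in V replicates 1 to 3 and 232, 265 and 295 in Q replicates 1 to 3, so that every Q library was below every V library. The means were 359 ± 19.7 (SD, n = 3) and 256 ± 34.0 (SD, n = 2). With Q replicates 2 and 3 kept apart, the log2 fold change was −0.44 (SE 0.093, adjusted p = 0.0176 by limma). The rpb2 values were 341, 392 and 391 in V cells and 195, 288 and 291 in Q cells, which gave the lowest log2 fold change of the members, −0.56 (SE 0.117, adjusted p = 0.0177). Here too the groups did not overlap, and Q replicate 1 was the lowest library.

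The stalk subunits Rpb4 and Rpb7, which bind each other and sit beside the exit path of the transcript, followed the same course. The rpb7 values were 808, 854 and 870 in V cells and 544, 592 and 638 in Q cells (log2 fold change −0.52, SE 0.062, adjusted p = 0.00529). The rpb4 values were 423, 383 and 396 in V cells and 257, 305 and 301 in Q cells (log2 fold change −0.48, SE 0.113, adjusted p = 0.0238). Both genes were separated into V and Q libraries without overlap, and rpb7 had the smallest error of the members.

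The genes rpb5, rpb6, rpb8 and rpb10 encode proteins that RNA polymerases I, II and III share. Their S5 log2 fold changes were −0.37, −0.43, −0.33 and −0.31, with adjusted p between 0.0113 and 0.0482. The rpb6 values, 523, 560 and 572 against 372, 413 and 449, were the most widely separated of this group. The rpb10 values were 521, 602 and 571 in V cells and 469, 432 and 466 in Q cells. Rpb9, which in budding yeast helps to place the start site and keeps transcription accurate, had values of 604, 640 and 711 in V cells and 537, 464 and 515 in Q cells at its 3′ window (log2 fold change −0.36, SE 0.090, adjusted p = 0.0263).

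The exception was rpb3, which encodes a scaffold subunit on which the polymerase is assembled. Its S5 values were 2721, 2962 and 2975 in V cells and 2720, 2474 and 2461 in Q cells, with V replicate 1 and Q replicate 1 almost level (log2 fold change −0.18, SE 0.080, adjusted p = 0.123). trp3, which lies inside this window and was looked up after the rpb3 values were seen, had an S5 log2 fold change of −0.50 in its own 5′ window (adjusted p = 0.0126).

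**Figure D1:**
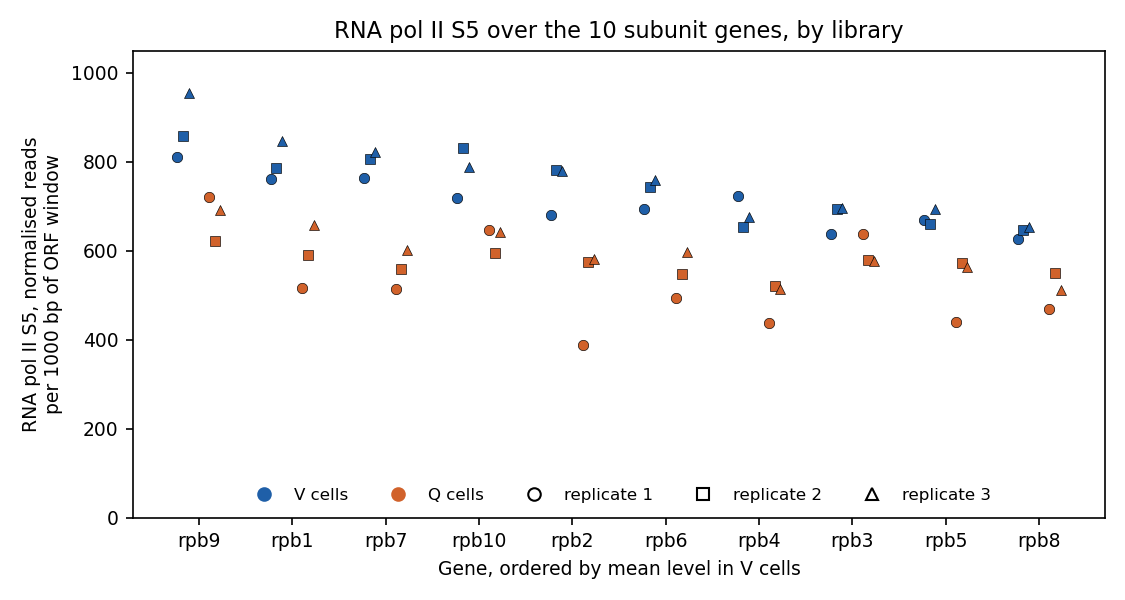
S5 level (normalised reads per 1000 bp of ORF window, axis from 0) of each member, in order of the mean level in V cells, with 1 point for each of the 3 V and 3 Q libraries and a marker shape for each replicate number. In all 10 members the Q libraries lie below the V libraries, narrowly at rpb3.

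In all, 9 of 10 members were lower for S5, where 24.7% of the 6580 windows tested were lower and 26.4% higher. The Q libraries were all below the V libraries in 10 of 10 members and in 34.8% of all windows. The median log2 fold change of the members was −0.40, against 0.00 over all windows, and no member passed a log2 fold change of 1. For scale, 26.8% of the plus-strand genes with more than 1 exon were lower (median log2 fold change −0.10), against 7 of 7 plus-strand members, and 22.6% of such minus-strand genes (median 0.03), against 2 of 3 minus-strand members. When Q replicates 2 and 3 were merged into a single library 9 members were lower. The fit without replicate 1 called 10, but its Q arm holds only the libraries that were counted as 1 sample, so that its errors are too small. The number fell to 1 (rpb7) without replicate 2 and to 3 (rpb2, rpb6 and rpb7) without replicate 3, although every member stayed below 0 in each of these fits.

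The S5 level per 1000 bp of window set the members close together in V cells. The order was rpb9 (875), rpb1 (799), rpb7 (798), rpb10 (779), rpb2 (748), rpb6 (732), rpb4 (685), rpb3 (677), rpb5 (675) and rpb8 (643). Neighbours in that order overlapped between libraries, except rpb5 and rpb8. Ranked among all windows by S5 per 1000 bp, rpb1 went from percentile 81.7 in V cells to 54.9 in Q cells, and rpb4 went from percentile 67.6 to 25.7. The rpb9 window, over a 3′ end, kept its place at percentiles 85.5 and 83.8.

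For S2, 2 of 10 members were lower and none higher, where 10.9% of the windows tested were lower and 8.74% higher. At rpb2 the S2 values were 472, 492 and 496 in V cells and 292, 330 and 290 in Q cells, a fall from percentile 87.5 to percentile 25.2 per 1000 bp. The log2 fold change was −0.68 (SE 0.142, adjusted p = 0.0279). At rpb7 the values were 875, 950 and 1011 in V cells and 646, 705 and 724 in Q cells (log2 fold change −0.45, SE 0.081, adjusted p = 0.0201). The groups did not overlap at either gene. Only rpb2 passed with Q replicates 2 and 3 as 1 library (adjusted p for rpb7 0.0563), and neither passed without replicate 2.

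The other 8 members did not pass the test for S2. Their log2 fold changes ran from −0.25 at rpb1 to 0.35 at rpb4. The rpb1 values were 348, 385 and 343 in V cells and 281, 304 and 319 in Q cells, without overlap but with an adjusted p of 0.275. The rpb4 values spread widely in V cells, at 343, 282 and 210, and overlapped those in Q cells, at 391, 319 and 335 (adjusted p = 0.208). The rpb4 estimate was not distinguishable from 0.

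Whether S2 changed differently from S5 was tested as an interaction over the 12 libraries. No member passed, and 0 of all windows tested were called lower (0%) or higher (0%), while 1278 windows and 3 members had an unadjusted p under 0.05 by limma. The largest estimates were a log2 difference of 0.83 at rpb4 (SE 0.204, adjusted p = 0.141) and 0.62 at rpb6 (SE 0.144, adjusted p = 0.124). In 9 of 10 members the estimate was above 0, and rpb2 was the exception at −0.12 (adjusted p = 0.688). Over all windows 52.7% of the estimates were below 0. The sign went in part with the strand. Plus-strand genes with more than 1 exon had a median of 0.21, against 0.42 at the plus-strand members. Such minus-strand genes had a median of −0.11, against 0.07 at the minus-strand members. The fit without the replicate block called rpb6 (adjusted p = 0.0344), and count models were not run for this difference.

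**Figure D2:**
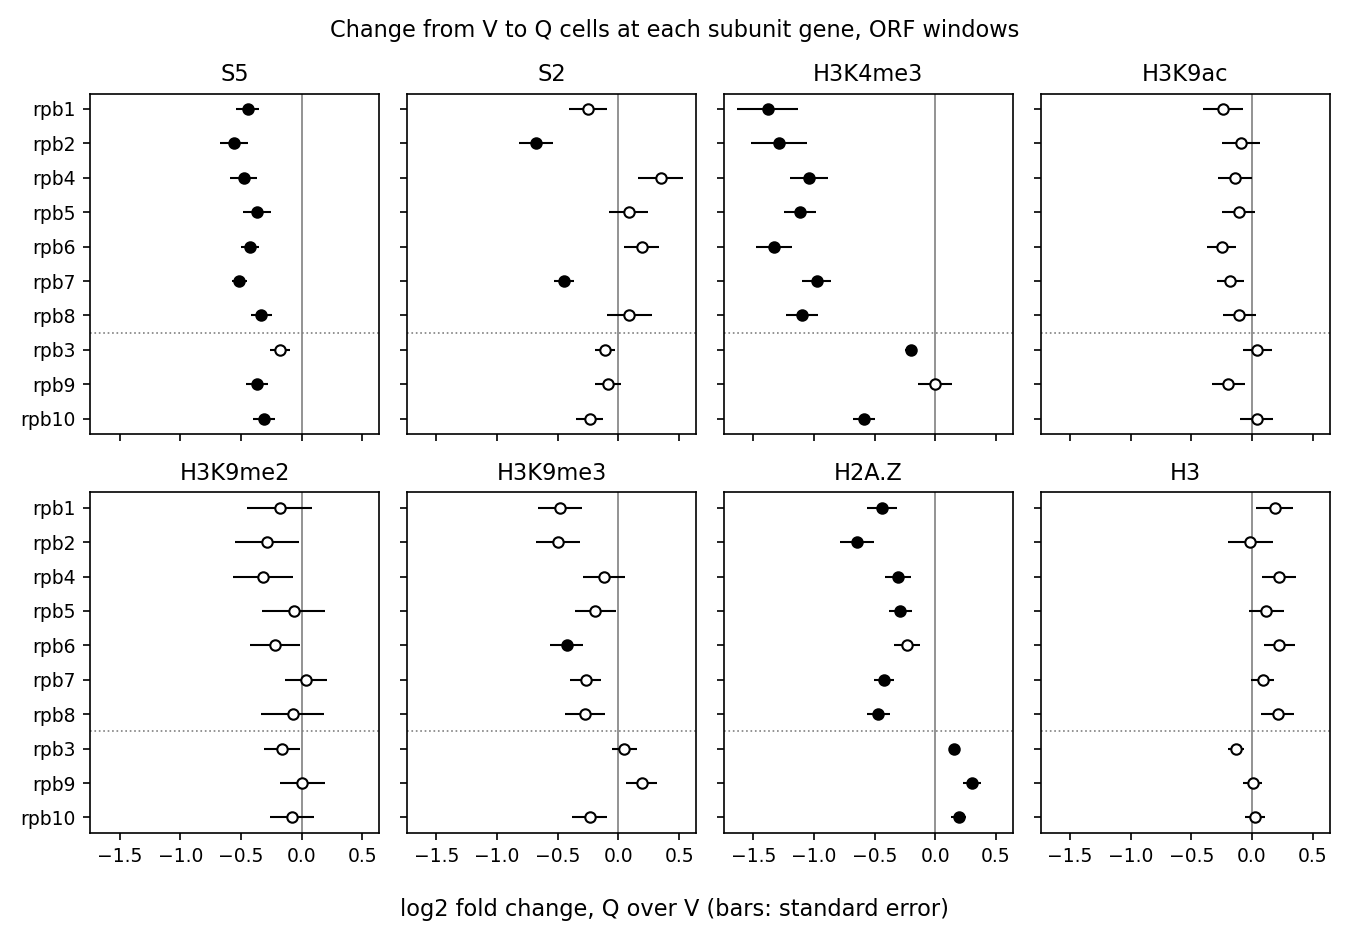
Log2 fold change of Q over V cells in ORF windows for each member (rows) and antibody. Filled points passed an adjusted p of 0.05, and plus-strand genes stand above the dotted line, where 7 of 7 were lower for S5 and for H3K4me3.

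H3K4me3, a mark of promoters of transcribed genes, had the largest changes. It was lower at 9 of 10 members, where 40.0% of windows were lower and 40.9% higher, and 6 members passed a log2 fold change of −1, where 13.8% of windows did. At rpb1 the values were 660, 449 and 427 in V cells and 153, 205 and 226 in Q cells, a log2 fold change of −1.38 (SE 0.254, adjusted p = 0.00476) and a ratio of V to Q cells of 2.60. At rpb6 they were 905, 808 and 806 in V cells and 274, 341 and 394 in Q cells (log2 fold change −1.33, SE 0.150, adjusted p = 0.00102). The V and Q libraries of both genes were far apart, and Q replicate 1 was the lowest in each.

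The plus-strand members fell alike for H3K4me3, from −0.98 at rpb7 to −1.38 at rpb1, with rpb2 at −1.29, rpb5 at −1.11, rpb8 at −1.10 and rpb4 at −1.04. The minus-strand members fell less or not at all. At rpb10 the values were 532, 796 and 798 in V cells and 364, 471 and 574 in Q cells, which overlapped between V replicate 1 and Q replicate 3 (log2 fold change −0.59, SE 0.091, adjusted p = 0.00257). At rpb3 they were 2234, 2228 and 2205 against 1901, 1934 and 1973 (log2 fold change −0.20, adjusted p = 0.0172), and at trp3 inside that window the log2 fold change was −1.37. The rpb9 values of 321, 407 and 349 in V cells and 387, 341 and 344 in Q cells overlapped, with a log2 fold change of 0.00 (SE 0.137, adjusted p = 0.998).

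Ranked by H3K4me3 per 1000 bp among all windows in V cells, the 7 plus-strand members stood between percentile 84.8 (rpb7) and percentile 94.2 (rpb6), and in Q cells between percentile 49.0 (rpb5) and percentile 86.8 (rpb4). The rpb10 window stood at percentiles 95.0 and 97.7. The strand, and with it the end of the gene that the window held, went with this mark in spliced genes of the whole genome. Among plus-strand protein-coding genes with more than 1 exon the median H3K4me3 log2 fold change was −1.07 (quartiles −1.27 and −0.69), and 84.4% were lower. Among minus-strand genes of that kind the median was 0.39, with 23.8% lower and 56.6% higher. The fall at the 7 plus-strand members, with a median of −1.11, was therefore near that of spliced plus-strand genes in general. For S5, in contrast, the plus-strand members had a median of −0.44 and such genes a median of −0.10. Leaving out replicate 1 kept the 9 H3K4me3 calls, with rpb1 at −1.02, and 8 calls remained without replicate 2 or without replicate 3, rpb3 being lost.

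**Figure D3:**
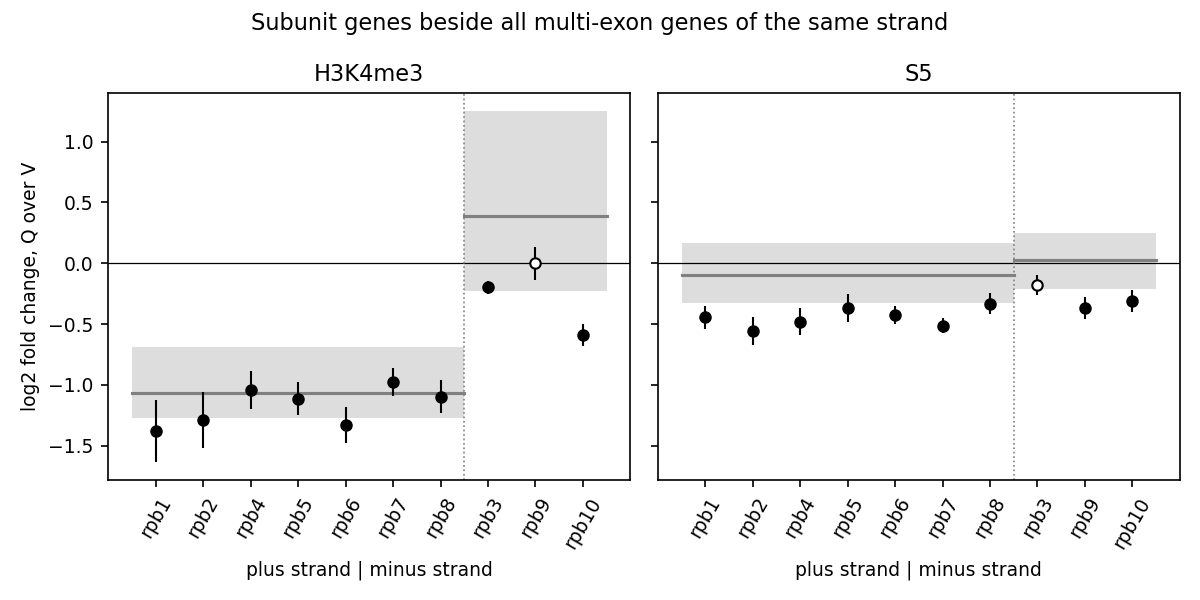
Log2 fold change of H3K4me3 and S5 for each member, beside the median (line) and quartiles (grey band) of all protein-coding genes with more than 1 exon on the same strand. For H3K4me3 the plus-strand members sit around the median of −1.07, and for S5 they sit below the median of −0.10.

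H2A.Z, the histone variant that flanks many promoters, moved in opposite directions at the plus-strand and the minus-strand members. It was lower at 6 of 10 and higher at 3 of 10, where 38.9% of windows were lower and 38.3% higher. The rpb2 values were 599, 685 and 745 in V cells and 292, 518 and 526 in Q cells, with the lowest of the log2 fold changes (−0.65, SE 0.141, adjusted p = 0.0100). rpb1, rpb4, rpb5, rpb7 and rpb8 were lower by −0.29 to −0.47, and rpb6 at −0.23 did not pass (adjusted p = 0.0930). At rpb9 the values were 503, 473 and 483 in V cells and 676, 556 and 578 in Q cells, so that each Q library was above each V library (log2 fold change 0.31, SE 0.075, adjusted p = 0.0145). rpb10 was higher by 0.19 and rpb3 by 0.16 on the log2 scale. Ranked by H2A.Z per 1000 bp among all windows, rpb1 stood at percentile 90.2 in V cells and 97.0 in Q cells although its values fell, and rpb10 went from percentile 57.3 to 89.7.

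Of all spliced plus-strand genes 70.1% were lower for H2A.Z (median log2 fold change −0.48), and of spliced minus-strand genes 52.1% were higher (median 0.23). Q replicate 1 was the lowest Q library at each of the 7 plus-strand members and the highest at rpb3 and rpb9. Without replicate 1 the same 9 members were called, and the rpb2 log2 fold change moved from −0.65 to −0.45. Without the replicate block 5 members were called (3 lower and 2 higher), and without replicate 2 or without replicate 3 there were 4, all lower (rpb1, rpb2, rpb7 and rpb8). DESeq2 called 5 (4 lower and 1 higher), and rpb4, rpb5, rpb9 and rpb10 were lost.

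**Figure D4:**
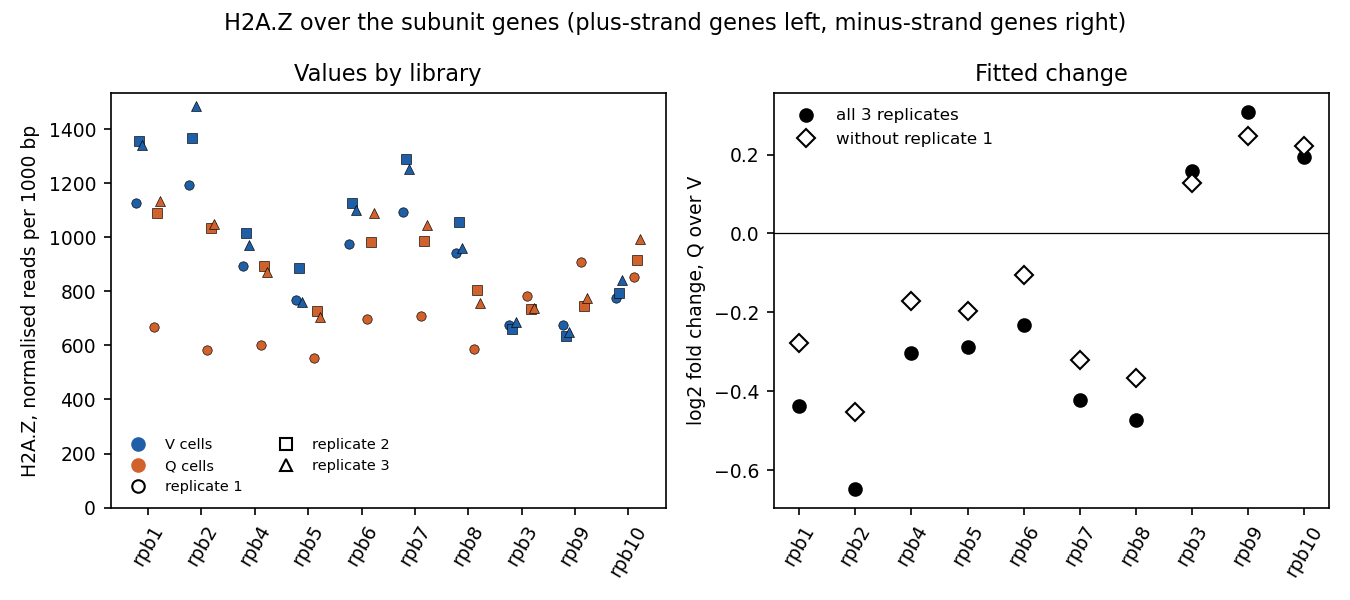
H2A.Z level of the members by library (left, normalised reads per 1000 bp of ORF window) and the fitted log2 fold change of Q over V cells with and without replicate 1 (right). Without replicate 1 the falls are smaller, as at rpb2 (−0.45 in place of −0.65), and each direction is kept.

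The remaining histone readouts separated few members. H3, the measure of nucleosome occupancy, was called at none, where 2.92% of windows were lower and 8.81% higher, with log2 fold changes from −0.13 (rpb3) to 0.23 (rpb6). Of all H3 calls 24.9% were lower, and 43.2% were with library totals in place of size factors. No member had an unadjusted p under 0.05 by limma, and edgeR and DESeq2 gave 0 as well. Without replicate 1 rpb4 and rpb6 were higher and rpb3 lower. The level of H3 in V cells followed the place of the window, at 500 (rpb8) to 598 (rpb7) normalised reads per 1000 bp at the plus-strand members and at 791 (rpb10), 801 (rpb3) and 838 (rpb9) at the minus-strand ones. In Q cells the ranges were 577 to 647 and 731 to 840. H3K9ac, an acetylation of active chromatin, gave no call in either direction at any of 6580 windows (0%), while 932 windows and 0 members had an unadjusted p under 0.05 by limma, edgeR called no member and DESeq2 called 69 windows. The H3K9ac log2 fold changes of the members lay between −0.25 (rpb6) and 0.05 (rpb3).

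H3K9me2 and H3K9me3 mark heterochromatin. Ranked per 1000 bp among all windows in V cells, the members stood between percentile 31.4 (rpb5) and percentile 90.5 (rpb10) for H3K9me2, and between percentile 21.5 (rpb4) and percentile 91.1 (rpb10) for H3K9me3. These ranks were not set against H3, whose level per 1000 bp in V cells was also higher at rpb10 than at every plus-strand member. The H3K9me2 values of rpb1 were 116, 101 and 107 in V cells and 80.6, 90.7 and 117 in Q cells, which overlapped. No member passed the test for H3K9me2 in limma, edgeR or DESeq2, nor had any an unadjusted p under 0.05 by limma, where 1.08% of windows were lower and 0.821% higher, and rpb3 was called without replicate 1. For H3K9me3, rpb6 was lower, where 5.35% of windows were lower and 11.1% higher. Its values were 197, 178 and 210 in V cells and 146, 134 and 155 in Q cells (log2 fold change −0.43, SE 0.137, adjusted p = 0.0491). This call was lost when any single replicate was left out, without the block, without the filter on low values and in DESeq2. Without replicate 1, rpb2 and rpb10 were called in its place. Of all H3K9me3 calls 32.6% were lower with the deposited size factors and 57.6% with library totals, which moved the median log2 fold change of all windows from 0.02 to −0.08.

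S5, H3K4me3 and H2A.Z were also measured in windows of the transcription start site (TSS), which span 401 bp in the files. These windows opened at the same base as the ORF windows, so that at the minus-strand members they lay over the 3′ end of the gene. Their reads are a part of those counted in the ORF windows. How much of the 264 bp that the rpb9 ORF window shared with mid2 lay in its TSS window was not measured. The rpb9 TSS values may therefore include signal at mid2. TSS H3K4me3 was lower at all 7 plus-strand members, with log2 fold changes from −0.84 (rpb4) to −1.29 (rpb1), and higher at rpb3 and rpb9, where 43.6% of windows were lower and 44.4% higher. At the 3′ end of rpb3, values of 78.2, 64.8 and 65.4 in V cells rose to 138, 133 and 137 in Q cells (log2 fold change 0.96, SE 0.240, adjusted p = 0.000350). The rpb9 log2 fold change was 0.26 (adjusted p = 0.0384), a call that was lost when any single replicate was left out (adjusted p 0.0793 to 0.240), without the block, relative to H3, in edgeR and in DESeq2. Without replicate 1, TSS H3K4me3 was lower at 8 members and higher at 1.

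TSS S5 was lower at 5 members and higher at rpb3, where 23.8% of windows were lower and 25.4% higher, a split that library totals moved from 48.4% to 36.7% of calls lower. The largest fall was in the TSS window of rpb9, which may take in part of mid2. Its values were 385, 398 and 471 in V cells and 307, 264 and 284 in Q cells. The log2 fold change was −0.55 (SE 0.116, adjusted p = 0.00633 by limma). rpb3 went the other way, from 151, 149 and 124 to 195, 194 and 189 (log2 fold change 0.45, SE 0.129, adjusted p = 0.0209), so that its 3′ end rose while its whole window did not change detectably. Of the members that did not pass, rpb4 was at −0.30 (adjusted p = 0.0649), rpb10 at −0.22 (adjusted p = 0.137), rpb8 at −0.07 and rpb6 at −0.04. Relative to H3, rpb1, rpb3 and rpb7 were called and rpb9 was not (adjusted p = 0.0915). Without replicate 2 a lone member, rpb2, was called, and without replicate 3 rpb2 and rpb7 were.

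TSS H2A.Z was lower at 5 members and higher at rpb9, where 38.2% of windows were lower and 39.7% higher. The rpb9 values rose from 241, 199 and 184 in V cells to 462, 310 and 329 in Q cells (log2 fold change 0.80, SE 0.103, adjusted p = 1.43e-07). rpb3 fell at its 3′ end by 0.45 on the log2 scale (adjusted p = 8.57e-05), although its whole window was higher. H3 in the same window went from 279, 316 and 323 in V cells to 228, 247 and 215 in Q cells, and relative to H3 the rpb3 change in H2A.Z was −0.04 (adjusted p = 0.813). V replicates 2 and 3 of TSS H2A.Z differed by less than sampling noise, and the fits and counts here keep them as separate libraries. The standard errors and p-values of TSS H2A.Z may therefore be too small. No fit with this pair merged was run.

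The shape of change over all antibodies set the members apart by strand as well. Values of log2(value + 1) were centred within each antibody and correlated over the 48 libraries, which share their antibodies, cultures and depth, so that the coefficients are a description. Pairs of plus-strand members had a median Pearson r of 0.830 (0.634 to 0.924, 21 pairs), and pairs with a gene on each strand a median of 0.040 (21 pairs). With rpb1, the members ranged from 0.922 at rpb2, 0.909 at rpb6 and 0.902 at rpb7 to 0.016 at rpb3 and −0.180 at rpb9. Among 6572 windows ranked by r with rpb1, rpb2 stood at percentile 99.9, rpb8 at 94.1 and rpb4 at 85.9. Many windows outside the set were thus as much like rpb1 as some plus-strand members. The genes outside the set with the pattern most like rpb1 were pop3 (r = 0.937), rpc10 (r = 0.936) and vma3 (r = 0.930). rpc10 encodes another subunit that polymerases I, II and III share, and vma3 a subunit of the vacuolar proton pump.

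The rest of the transcription machinery was measured in the same S5 fit, in lists chosen by function, to be read against the 24.7% of all windows that were lower and the 26.4% that were higher. Of the 2 other RNA pol II subunits in the table, rpc10 was lower (log2 fold change −0.61, adjusted p = 0.00631), and rpb11, the partner of Rpb3, was at 0.22 (adjusted p = 0.132). Of 9 RNA polymerase I subunits, 5 were lower and 1 higher, with rpa34 at −0.56 (adjusted p = 0.00431) and rpa12 at 0.47 (adjusted p = 0.0128). Of 10 RNA polymerase III subunits, 4 were lower and none higher. Their lowest value was at rpc34 (−0.40, adjusted p = 0.0116).

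The factors that work with the polymerase had S5 calls in both directions, in shares near or below those of all windows. Of 33 general transcription factors, 6 were lower and 8 higher, from tbp1 (−0.86, adjusted p = 0.0180), which encodes the TATA-binding protein, to tfb6 (0.79, adjusted p = 0.00429). Of 19 Mediator subunits, 3 were lower and 3 higher, from med15 (−0.46) to med13 (0.49). Of 16 elongation factors, 4 were lower and 1 higher, with pob3, a subunit of the histone chaperone FACT, at −0.34 (adjusted p = 0.0250) and rtf1 at 0.49 (adjusted p = 0.0252). None of 6 genes for polymerase assembly and import passed, by limma. Median S5 log2 fold changes were −0.35 for RNA polymerase I, −0.12 for RNA polymerase III, 0.10 for general transcription factors and −0.09 for Mediator, against −0.40 for rpb1 to rpb10. They were −0.20 for the 2 other RNA pol II subunits, −0.002 for elongation factors and −0.04 for assembly and import. The lists were not split by strand.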

How the data were processed

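ChIP-seq was performed in V and Q cells of 1 strain, and the 8 ORF tables and 4 of the TSS tables (S5, H3K4me3, H2A.Z and H3) were used. The other 4 TSS tables and the 2 input samples were not analysed here. The submitters' processing notes name bcl2fastq 2.20.0.422, BWA 0.7.17, SAMtools 1.17, deepTools 3.3.2, DESeq2 and the build ASM294v2. The deposited values are a signal, the reads of each window divided by the size factor of its library, as the authors made it with DESeq2. The authors removed batch effects in their comparison, but neither their design nor the use of the Drosophila spike-in chromatin in the size factors is stated. All 72 columns used gave back whole reads, with a largest deviation from a whole number of 2e-10. The tables also hold the authors' own log2 fold changes and p-values, which were not used.

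Values were taken as log2(value + 1) and fitted with limma 3.58.1 in R 4.3.3 for each antibody alone, with the replicate number as a block, over windows whose value reached 10 in 3 or more libraries. P-values were adjusted by Benjamini-Hochberg over all windows tested, and a window was called at an adjusted p under 0.05. The H2A.Z libraries of the same number deviated together (correlations of 0.352 to 0.516 across windows), so that its numbers pair the samples by the data, and those of the other antibodies did not in every pair. Replicates whose reads differed by less than sampling noise were counted as 1 sample in means, and were kept as separate libraries in the main fits. Alternatives were no block, library totals, no filter, a pseudocount of 5, edgeR 4.0.16, DESeq2 1.42.0, the change relative to H3, merged Q replicates and each replicate left out. The fit was tested on simulated data, in which it called 43% of 100 S5 windows changed by 0.5 on the log2 scale and 99% of 100 changed by 1, over 6579 windows. For H3K4me3 it called 28% and 98%, over 6576 windows. Of the unchanged windows, 13 were called for S5 and 4 for H3K4me3. The simulated libraries were drawn independently, with a fixed dispersion, no replicate effect and no duplicated pair. These shares therefore need not hold for the deposited libraries.

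All 10 members were named whatever their values, with the genes of lowest and highest S5 change in a functional list and the 3 genes most like rpb1. Members, lists and tests were chosen with earlier results of these data known. Strand, exons and sequences came from RefSeq (ASM294v3), to which 6521 identifiers matched. How reads in overlapping windows were counted is not stated.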

Additional observations from a re-analysis of the deposited data

How the results depend on the processing

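Of 1200 fits of a member under an alternative, 1096 kept their side of the threshold, 85 lost the call, 19 gained one and 0 called fits reversed. Among the 1096, 30 changed sign without a call in either fit. Of 120 counts of called members, 99 stayed within 1.5 times. Leaving out each replicate in turn gave 1 to 10 members for S5 in ORF windows (9 with all), 0 to 2 for S2 (2), 0 to 1 for H3K9me2 (0), 0 to 2 for H3K9me3 (1), 4 to 9 for H2A.Z (9), 0 to 3 for H3 (0) and 1 to 7 for TSS S5 (6). The fits of S5 and S2 without replicate 1 rest on Q replicates counted as 1 sample, so that their calls are no sign of stability. DESeq2 gave 5 for H2A.Z. Without the replicate block there were 5 for H2A.Z, 0 for H3K9me3 and 1 for the difference between S2 and S5, and the block changed no other count by over 1.5 times. For antibodies other than H2A.Z the samples shared only a number: deviations of the same number correlated between −0.543 (H3) and 0.718 (H3K9ac), and no antibody had all 6 samples closest to their own number. For H3K9me3, 0 members were called by DESeq2 and 0 without the filter. Relative to H3 there were 1 for S2 and 3 for TSS S5, and with Q replicates 2 and 3 as 1 library there was 1 for S2. For S5 in ORF windows DESeq2 and the change relative to H3 each gave 6. The S2 and S5 difference with merged Q replicates, an alternative chosen after seeing the data, called 0 members, and edgeR and DESeq2 were not run for it. Cause was not tested in any of these.

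Counts over all windows that moved by over 1.5 times were, for S5, 2194 without replicate 2 and 2140 without replicate 3 (3362 with all). For S2 there were 2510 without replicate 1, 521 without replicate 2 and 268 with merged Q replicates (1291). For H3K9ac there were 321 without replicate 1, 1327 without replicate 3 and 69 by DESeq2 (0). For H3K9me2 there were 0 without the block, 0 relative to H3, 986 without replicate 1 and 48 without replicate 2 (125). For H3K9me3 there were 0 without the block, 603 by DESeq2, 334 without replicate 2 and 222 without replicate 3 (1080). For H3 there were 1992 without the block, 3310 without replicate 1 and 409 without replicate 2 (772). For TSS S5 there were 4868 without replicate 1, 1758 without replicate 2 and 1759 without replicate 3 (3222), and for S2 minus S5 there were 265 without the block (0). Library totals moved the median log2 fold change of all windows for TSS H3K4me3 to 0.20, against 0.00. The few reads at a member for H3K9me2 (29 to 2328) and H3K9me3 (27 to 2569) limit what could be seen there.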
